A study of Mus musculus with 10 samples.

Results

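Gm10260, Rpl15-ps2, AC166110.4, Gm43305 and Gm33301 are 5 little-studied genes of the mouse whose reads in the testis were near 0 in every library of one genotype and present in every library of the other. They were chosen by this contrast of genotypes, 5 of the 55421 genes counted, so their levels are given as a description with no test. All 5 passed the minimum of 1 CPM (reads on a gene scaled to the library's total on genes, whereas the study's RPM divides by all mapped reads) in at least 3 of 6 libraries, as did 20240 genes in all. Testes at postnatal day 21 (P21) came from 3 wild type mice, replicates 1, 2 and 3, and from 3 Mov10-/- mice, replicates 2, 3 and 4. The Mov10-/- mice were global knockouts: exons 8 to 14, which hold an RNA helicase domain, had been removed by Actb-Cre, whose actin promoter is active in all tissues. The Mov10 mutant mice were on a hybrid background of 129, C57BL/6 and FVB. Whether the wild type mice shared this background is not given in the sources used here. Stretches of the genome that differ between mouse strains and between these mice cannot be told apart from the genotype in these counts. Another set of 4 libraries held RNA cross-linked to MOV10 in wild type P21 testes (CLIP-seq).

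MOV10 is an RNA helicase that acts on mRNAs and on the RNA of retrotransposons. A retrocopy is a gene copied back into the genome from a spliced mRNA, as a rule by the enzymes of a LINE-1 retrotransposon, and it lacks the introns and the promoter of its source gene. Genes for ribosomal proteins have left many retrocopies, of which most are silent. Long noncoding RNAs, the other kind among the 5, are abundant in the testis, above all in meiotic and later germ cells. A read that could come from several near-identical copies cannot be assigned to any of them, and htseq-count lists such reads apart.

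3 of the genes were higher in Mov10-/- testes and 2 were lower. Among the higher genes, Gm10260 (ENSMUSG00000069117) lies on chromosome 13, in mm10 at 97760072 to 97760632 on the minus strand, as 1 exon of 561 bases that the annotation calls protein-coding and a retrogene. RefSeq names it Rps18-ps6, a copy of the mRNA of Rps18, a protein of the small ribosomal subunit. Rpl15-ps2 (ENSMUSG00000098915), a processed pseudogene, lies on chromosome 9 at 72060937 to 72061549 on the plus strand, as 1 exon of 613 bases within the body of Tcf12 and on the opposite strand. Its source, Rpl15, encodes a protein of the large subunit. AC166110.4 (ENSMUSG00000117278), a long intergenic noncoding RNA, lies on chromosome 17 at 13330748 to 13333842 on the plus strand, as 1 exon of 3095 bases, among the Tcp10 and Smok genes of the t-complex region. The lower genes were Gm43305 (ENSMUSG00000105703) on chromosome 14 at 54292443 to 54297456 on the minus strand, a noncoding transcript with 5014 bases of exon, and Gm33301 (ENSMUSG00000115367) on chromosome 15 at 40162581 to 40168076 on the plus strand, a long intergenic noncoding RNA with 1090.

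The sequences show how alike the genes that rose are to other loci. Gm10260 and the Rps18 mRNA matched at 99.1% of 545 aligned bases, with 5 mismatches and no gap, of which 4 fell in the 456 coding bases. Rpl15-ps2 and the Rpl15 mRNA matched at 98.7% of 613 bases, with 8 mismatches, all within 610 aligned coding bases. The following stretches of 60 bases, 5′ to 3′, hold the most mismatches within the coding part of each pair, and capitals mark the bases that differ. They come from GENCODE transcripts on mm10. Gm10260 is shown at chr13:97760218-97760277, minus strand, with bases 369 to 428 of the Rps18 mRNA, and Rpl15-ps2 at chr9:72061229-72061288, plus strand, with bases 512 to 571 of the Rpl15 mRNA.
Gm10260: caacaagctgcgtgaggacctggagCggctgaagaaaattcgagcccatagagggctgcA
Rps18: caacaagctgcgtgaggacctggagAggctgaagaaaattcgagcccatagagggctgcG
Rpl15-ps2: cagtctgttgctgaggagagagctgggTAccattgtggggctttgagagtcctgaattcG
Rpl15: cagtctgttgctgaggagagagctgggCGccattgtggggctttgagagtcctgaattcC

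AC166110.4 is alike over its whole length to parts of 2 genes on the same chromosome. It matched 98.5% of 3108 bases of a Sod2 transcript subject to nonsense-mediated decay, in a part with no coding base, and 97.9% of 3109 bases of Rps6ka2, of which 125 were coding. Sod2 encodes the mitochondrial manganese superoxide dismutase, and Rps6ka2 a ribosomal S6 kinase. Gm43305 shared shorter stretches with several genes, mostly noncoding, the longest in Gm42031, at 98.7% of 748 bases. Gm33301 had no match of at least 200 bases at 90% identity. The stretches of 60 bases with the most differing bases are at chr17:13332670-13332729, plus strand, for AC166110.4 (capitals differ from Sod2) and at chr14:54292743-54292802, minus strand, for Gm43305, with bases 1474 to 1533 of Gm42031 beside it.
AC166110.4: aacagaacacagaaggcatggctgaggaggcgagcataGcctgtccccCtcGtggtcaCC
Gm43305: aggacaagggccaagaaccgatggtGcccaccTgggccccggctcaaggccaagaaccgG
Gm42031: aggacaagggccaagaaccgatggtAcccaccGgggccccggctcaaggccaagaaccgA

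How much of each gene can be told from others was counted in windows of 50 bases. For Gm10260, 63.3% of 512 windows occurred letter for letter, on the same strand, in an annotated transcript of another gene. On either strand it was 96.5%, with Gm26619 on the opposite strand among the matches. The same-strand share was 84.2% of 564 windows for Rpl15-ps2 and 66.1% of 3046 for AC166110.4. It was 16.4% for Gm43305 and 0% for Gm33301. In windows of 100 bases the shares were 46.3%, 43.8%, 38.6%, 7.52% and 0%, in the same order, and 96.1% for Gm10260 on either strand. The 3 genes higher in Mov10-/- testes thus had the larger shares, and the reads counted on them came only from the remaining positions if the counting kept to unique alignments.

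Start regions were in the RefSeq table for Gm43305 and Gm33301, and they are shown because both genes were near 0 in Mov10-/- testes. Each runs from 250 bases before the annotated start to 50 after it, on build GRCm38.p6, at chr14:54297439-54297738, minus strand, for Gm43305 and at chr15:40162331-40162630, plus strand, for the first of the annotated starts of Gm33301. The motifs searched, each on both strands, began with the TATA box, spelled TATAAA, which places the start of transcription in many genes. The second was CCAAT, bound by the factor NF-Y. The GC box, spelled GGGCGG, is bound by Sp1. The last was the cAMP response element, spelled TGACGTCA, which CREM binds in germ cells. Capitals mark the matches. The region of Gm43305 held TATAAA 27 bases before the start and none of the other motifs, while that of Gm33301 held CCAAT 54 bases before it and none of the others.
Gm43305: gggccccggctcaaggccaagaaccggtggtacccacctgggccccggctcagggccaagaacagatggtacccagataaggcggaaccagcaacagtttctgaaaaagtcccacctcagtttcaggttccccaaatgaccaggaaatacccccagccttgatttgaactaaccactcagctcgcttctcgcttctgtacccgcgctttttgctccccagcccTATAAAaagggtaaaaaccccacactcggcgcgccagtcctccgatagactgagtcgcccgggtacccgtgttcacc
Gm33301: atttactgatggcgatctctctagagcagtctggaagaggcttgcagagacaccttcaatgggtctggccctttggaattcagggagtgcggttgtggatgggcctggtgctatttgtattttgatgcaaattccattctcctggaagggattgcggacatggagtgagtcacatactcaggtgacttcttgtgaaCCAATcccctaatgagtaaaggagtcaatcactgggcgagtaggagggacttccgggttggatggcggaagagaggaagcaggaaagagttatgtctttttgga

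Of 32851 start regions of the same length in the table, 13.6% held the TATA box and 37.4% the CCAAT motif. The GC box was in 35.7% and the cAMP response element in 1.79%. Bases G and C made up 57.3% of the Gm43305 region and 49% of the Gm33301 region, against a median of 52.7%.

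Between 5083407 and 9230540 reads per RNA-seq library were assigned to genes, and after TMM scaling a single read was worth 0.107 to 0.205 CPM. Mov10 itself was at 29.0, 26.6 and 26.7 CPM in Mov10-/- replicates 2, 3 and 4 and at 114, 96.4 and 119 CPM in wild type replicates 1, 2 and 3, on exons that include those not deleted. It was the single gene that edgeR's quasi-likelihood test called over all genes at a fold over 2 and an adjusted p under 0.05 (log2 difference of -2.00, SE 0.12, adjusted p = 0.00552), which is 0.00494% of the genes tested. Without Mov10-/- replicate 3 or replicate 4 the count was 0. Mov10-/- replicate 3 had the fewest reads on genes and 57.2% of its reads not aligned, against 26.5% to 35.9% in the other libraries. DESeq2 called 5.13% of the same genes, edgeR's exact test 5.44% and limma voom 0.00988%. With edgeR at the same limits the study itself reports many changed protein-coding genes, most of them lower in the knockout. It does not name which of edgeR's tests it used.

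Gm10260 had 82, 88 and 85 reads in Mov10-/- replicates 2, 3 and 4 and 7, 4 and 8 in wild type replicates 1, 2 and 3. Its level was 10.1, 18.0 and 10.4 CPM in Mov10-/- testes and 0.821, 0.545 and 0.855 CPM in wild type. Replicate 3 of the knockout was the highest, and the lowest knockout library stood 11.8 times above the highest wild type library. The fitted log2 difference was 4.07 and the ratio of pooled levels 16.02 (95% exact interval 10.1 to 27.1, which covers counting error only).

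Rpl15-ps2 had 28, 24 and 31 reads in Mov10-/- testes and 0, 1 and 2 in wild type. These were levels of 3.46, 4.91 and 3.81 CPM against 0, 0.136 and 0.214 CPM. The wild type libraries were all at or below 3 reads, so the fold is poorly bounded from above. The pooled ratio was 33.0 with an interval from 10.9 to 163.

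AC166110.4 had 75, 51 and 58 reads in Mov10-/- testes and 4, 0 and 1 in wild type, or 9.26, 10.4 and 7.13 CPM against 0.469, 0 and 0.107 CPM. The knockout libraries lay within 1.46 times of each other, and the pooled ratio was 43.9 (18.5 to 137). Most wild type reads were in replicate 1.

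Gm43305 had 318, 124 and 76 reads in wild type replicates 1, 2 and 3, or 37.3, 16.9 and 8.13 CPM. The Mov10-/- libraries held 0, 1 and 0 reads, so the single knockout read, in replicate 3, sets the pooled ratio of 434 and its wide interval from 77.5 to 17170. Among the 5 genes Gm43305 varied most within its higher genotype, by 4.59 times, a spread that the interval leaves out.

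Gm33301 had 87, 160 and 188 reads in wild type testes and 4, 6 and 5 in Mov10-/- testes. Its levels were 10.2, 21.8 and 20.1 CPM against 0.494, 1.23 and 0.614 CPM. The wild type libraries lay within 2.14 times of each other, and every knockout library kept some reads. The pooled wild type level was 24.3 times that of the knockout (14.6 to 43.8), and the lowest wild type library was 8.31 times the highest knockout library, the smallest gap among the 5.

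**Figure D1:**
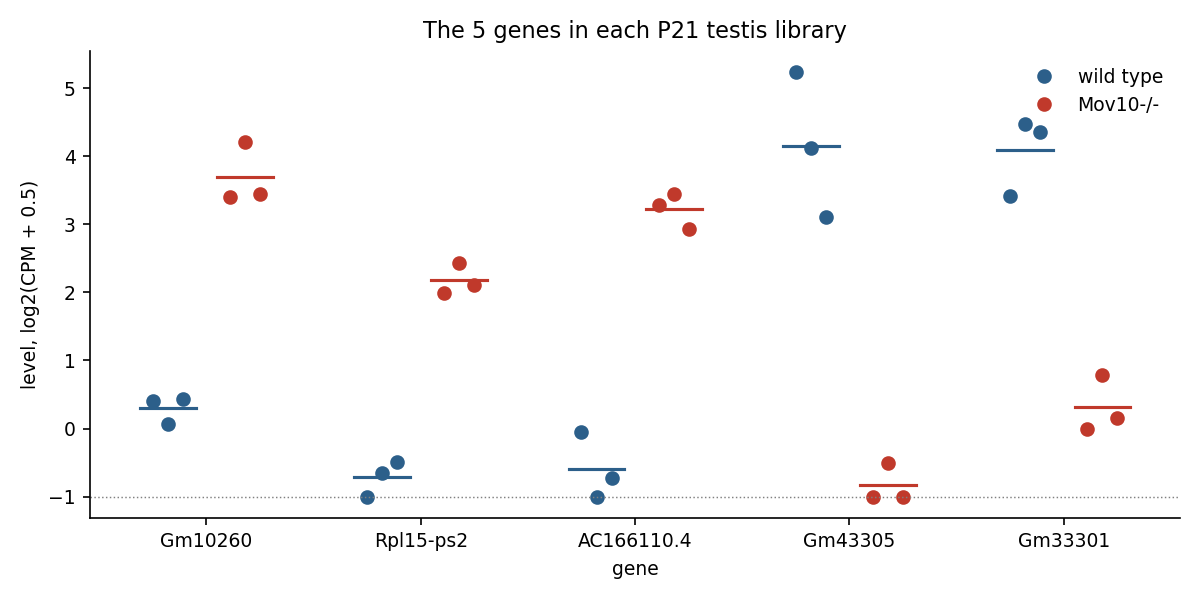
Level of the 5 genes in each RNA-seq library, as log2(CPM + 0.5) on the vertical axis (blue, wild type replicates 1 to 3 from left to right, red, Mov10-/- replicates 2 to 4), with a bar at each mean and a dotted line at 0 reads. Gm10260, Rpl15-ps2 and AC166110.4 sit higher in all 3 knockout libraries, Gm43305 and Gm33301 higher in all 3 wild type libraries, and the widest spread within a genotype is that of Gm43305 in wild type.

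Per length of exon and in the genotype where each was higher, Gm10260 ranked first with a mean of 22.9 CPM per kilobase (18.1 to 32.1 over libraries), followed by Gm33301 with 15.9 (9.36 to 20.0). Then came Rpl15-ps2 with 6.62 (5.64 to 8.01), Gm43305 with 4.14 (1.62 to 7.43) and AC166110.4 with 2.89 (2.30 to 3.37). Only the step from Gm33301 to Rpl15-ps2 separated neighbours in this order whose libraries did not overlap. Lengths are those of the annotated exons, including positions at which reads could not be assigned.

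The source genes of the retrocopies, which the choice of the 5 did not use, showed no change of that size. Rps18 was at 49.9, 43.6 and 47.1 CPM in Mov10-/- testes and at 47.7, 47.2 and 47.8 CPM in wild type, and the ranges overlapped (log2 difference of -0.02, SE 0.12, edgeR adjusted p = 0.94). Rpl15 was at 50.4, 45.8 and 44.8 CPM against 44.5, 36.9 and 42.8 CPM. Its lowest knockout library was just above its highest wild type library, and the difference did not pass the test (log2 difference of 0.18, SE 0.13, edgeR adjusted p = 0.52).

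Reads on Gm10260 made up 16.9%, 29.2% and 18.2% of the reads on Gm10260 and Rps18 together in Mov10-/- replicates 2, 3 and 4. In wild type the share was 1.69%, 1.14% and 1.76%. For Rpl15-ps2 the share of its reads and those of Rpl15 was 6.42%, 9.68% and 7.83% in Mov10-/- testes and 0%, 0.368% and 0.498% in wild type. The counts on these source genes also leave out reads that fit several copies, so the shares describe assigned reads and not RNA.

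**Figure D2:**
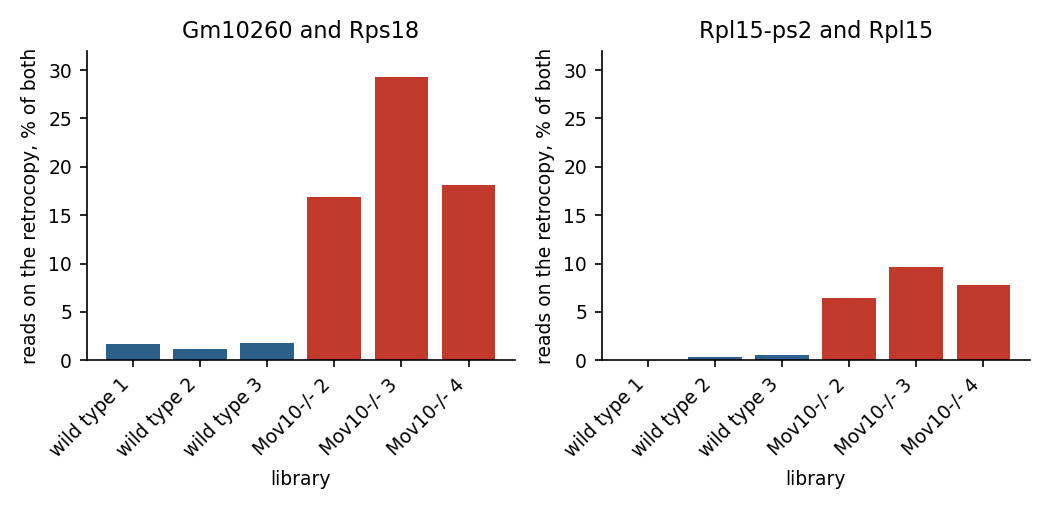
Reads assigned to a retrocopy as a percentage of its own reads and those of its source gene, for Gm10260 with Rps18 (left) and Rpl15-ps2 with Rpl15 (right), one bar per RNA-seq library (blue, wild type, red, Mov10-/-). The Mov10-/- bars stand at 16.9% to 29.2% for Gm10260 and at 6.42% to 9.68% for Rpl15-ps2, and no wild type bar reaches 2%.

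Across all genes with a transcript alike one of the 5 (at least 200 bases at 90% identity or more), 50 were in the files and 16 were tested. The quasi-likelihood test called 0 of them and limma voom 0. At an unadjusted p under 0.05 there were 6 (2 higher and 4 lower), or 37.5%, against 17.5% of all genes tested. DESeq2 called 2 and the exact test 2, against 5.13% and 5.44% of all genes. Gm26619, which overlaps Gm10260 on the opposite strand, was among the 6 and among those called by each of these tests. Its reads cannot be told apart with certainty from those of Gm10260. The median log2 difference of the 16 was 0.17, against 0.03 over all genes.

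Gm10020, another copy of Rpl15 on chromosome 15, matched Rpl15-ps2 at 98.7% of 610 bases and had 22, 14 and 17 reads in Mov10-/- testes and 6, 5 and 5 in wild type. Its genotypes did not overlap, with a log2 difference of 1.97 (SE 0.37, edgeR adjusted p = 0.15). The exact test called it (adjusted p = 0.00614) and DESeq2 did not (adjusted p = 0.072). Rps18-ps3, which matched Gm10260 at 98.9% of 456 bases and was below the minimum for testing, had 11, 8 and 6 reads against 5, 4 and 2. Gm11361, also a copy of Rps18, had 17, 14 and 14 reads against 11, 3 and 17 and overlapped between genotypes. Reads that move between near-identical copies could not be followed in these counts.

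For AC166110.4, Rps6ka2 averaged 146 CPM in Mov10-/- testes and 132 in wild type (log2 difference of 0.15, SE 0.12, edgeR adjusted p = 0.57). Sod2 averaged 85.1 and 74.8 CPM (log2 difference of 0.18, SE 0.11, edgeR adjusted p = 0.45). Both overlapped between genotypes.

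Among the 12 genes alike Gm43305, 7 were tested and 4 were lower at an unadjusted p under 0.05, against 2415 lower of the 20240 genes tested. Of these, Gm4316 had 82, 28 and 47 reads against 96, 92 and 173 (log2 difference of -0.96, SE 0.34, edgeR adjusted p = 0.22), and AI506816 had 67, 36 and 90 against 73, 228 and 350 (log2 difference of -1.52, SE 0.51, edgeR adjusted p = 0.19; DESeq2 adjusted p = 0.047). AI506816 overlapped between genotypes. Another relative, AC102496.1, had a positive log2 difference of 1.25 (edgeR adjusted p = 0.35) and overlapped too. Gm42031, the closest, had 5, 0 and 16 reads in Mov10-/- testes and 2, 0 and 2 in wild type, which overlapped, and was not tested. Of the 4 lower relatives, Gm4316 matched 73.2% of a Gm43305 transcript of 705 bases. AI506816, Cnbd2 and Gm10524 matched only 6.84%, 5.63% and 4.24% of one of 4901 bases, Cnbd2 on the opposite strand.

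**Figure D3:**
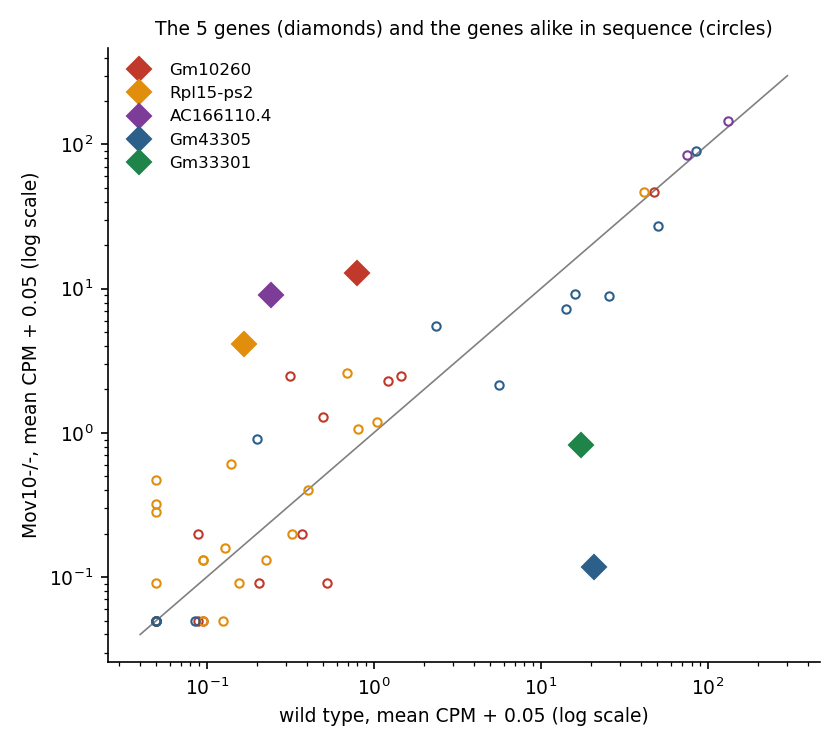
Mean level in wild type (horizontal) against Mov10-/- (vertical) of the 5 genes (filled diamonds) and of the 50 genes alike in sequence (open circles in the colour of the gene they match), both axes as CPM + 0.05 on a log scale, with a line of equal levels. The diamonds lie far from the line and the source genes Rps18 and Rpl15, as well as Sod2 and Rps6ka2, which AC166110.4 matches, lie on or close to it.

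Ribosomal protein genes and their pseudogenes, each listed by the form of the gene name, were read from the same fit. Neither of the 2 retrocopies was in these lists. Of 86 ribosomal protein genes tested the quasi-likelihood test, DESeq2, the exact test and voom each called 0. At an unadjusted p under 0.05 there was 1 higher (Rplp0, log2 difference of 0.67) and 1 lower (Rpl35a, -0.52), or 2.33% against 17.5% of all genes. Libraries of the genotypes did not overlap in 20.9% of the list (16 higher and 2 lower). Over all genes tested it was 26% (2414 higher and 2858 lower of 20240). The median log2 difference of the list was 0.18, against 0.03 over all genes.

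Of 299 genes other than Rpl15-ps2 named as ribosomal pseudogenes (a ribosomal protein's symbol followed by -ps), 44 were tested. Copies with other names, such as Gm10020, were not in this list. Rpl9-ps6 and Rpl36a-ps1, which were, are annotated as protein-coding. The quasi-likelihood test and voom called 0, and DESeq2 and the exact test 1 each, while these tests called 5.13% and 5.44% of all genes. At an unadjusted p under 0.05 there were 3 (2 higher and 1 lower), or 6.82%, against 17.5% of all genes. Their median log2 difference was 0.16, against 0.03 over all genes. Of the 44, 15.9% did not overlap between genotypes (5 higher and 2 lower), against 26% of all genes. Rps2-ps10, a copy of the mRNA of another protein of the small subunit, was the one called in this list. It had 24, 26 and 16 reads in Mov10-/- testes and 1, 0 and 2 in wild type (log2 difference of 4.65, SE 0.72, edgeR adjusted p = 0.15, DESeq2 adjusted p = 0.0017). Next in order, Rps15a-ps6 had 30, 13 and 11 reads against 4, 10 and 7, which overlapped.

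Whether the genes beside each of the 5 differed with it was read from the same fit. Within 250 kb of any of them lay 154 other genes, of which 25 were tested. The quasi-likelihood test and voom called 0, DESeq2 1 and the exact test 2, while the latter tests called 5.13% and 5.44% of all genes. Gm26619, which overlaps Gm10260 and was also counted among its sequence relatives, was called by DESeq2 and by the exact test. At an unadjusted p under 0.05 there were 3 (2 higher and 1 lower), or 12%, against 17.5% of all genes. Their median log2 difference was 0.11, against 0.03 over all genes. Of the 25, 28% did not overlap between genotypes (5 higher and 2 lower), near the 26% of all genes.

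Beside Gm10260, Gm26619 is a long intergenic noncoding RNA on the opposite strand that covers 543 of its 561 bases. It had 11, 20 and 15 reads in Mov10-/- testes and 2, 1 and 4 in wild type. The genotypes did not overlap (log2 difference of 3.03, SE 0.63, edgeR adjusted p = 0.15; DESeq2 adjusted p = 0.032; exact test adjusted p = 0.0036). The kit keeps the strand, but the setting of the counting is not given in the sources used here, so reads of Gm26619 and of Gm10260 cannot be told apart with certainty. The nearest tested genes on either side, Gm2379 at 244 kb and Arhgef28 at 139 kb, had log2 differences of 0.54 (SE 0.41) and 0.31 (SE 0.38), with edgeR adjusted p = 0.53 and 0.70.

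Rpl15-ps2 lies inside Tcf12, which encodes a basic helix-loop-helix transcription factor. Tcf12 was at 151, 129 and 130 CPM in Mov10-/- testes and at 121, 91.5 and 122.6 CPM in wild type (log2 difference of 0.29, SE 0.14, edgeR adjusted p = 0.32). The genotypes did not overlap, but the step was small beside that of Rpl15-ps2. A430027C01Rik at 47.9 kb had a log2 difference of 0.71 (SE 0.48) and Zfp280d at 213 kb one of 0.04 (SE 0.11).

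Near AC166110.4, AC166110.3, a transcribed pseudogene 7.40 kb away on the other strand, went the opposite way. It had 2, 4 and 3 reads in Mov10-/- testes and 9, 34 and 17 in wild type (log2 difference of -2.44, SE 0.72, edgeR adjusted p = 0.17; exact test adjusted p = 0.044; DESeq2 adjusted p = 0.13). Tcp10b, 248 kb away on the other side, had a log2 difference of -0.18 (SE 0.25), and Tcp10c, 20.7 kb away, one of -0.05 (SE 0.20).

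Wild type replicate 2 stood apart in genes of this region that were too low to test. Smok2b had 1, 55 and 0 reads in wild type replicates 1, 2 and 3, Smok2a had 2, 39 and 0, Unc93a 0, 21 and 0, and Smok4a 0, 14 and 0. No Mov10-/- library had a read on any of these. Replicate 2 also stood apart in genes elsewhere, such as Sppl2c on chromosome 11, with 121, 845 and 44 reads in wild type replicates 1, 2 and 3. Smok genes encode sperm motility kinases of the t-complex. AC166110.4 itself had 0 reads in wild type replicate 2, and the gap between genotypes is as wide without that library, since replicate 1 holds the highest wild type level.

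Beside Gm43305, 12 genes were tested. Abhd4, a lipid hydrolase gene 21.8 kb away, had a log2 difference of 0.12 (SE 0.11), and Oxa1l, for a protein of the mitochondrial inner membrane, 63.4 kb away on the other side, one of 0.25 (SE 0.12). Lrp10 at 167 kb had the smallest unadjusted p near Gm43305 (0.0126, log2 difference of 0.40, edgeR adjusted p = 0.18). None of the 12 had a log2 difference below -0.22. Gm33301 had 9330182O14Rik at 12.6 kb, with 1, 6 and 9 reads in Mov10-/- testes and 11, 16 and 14 in wild type (log2 difference of -1.06, SE 0.65, edgeR adjusted p = 0.44). On its other side no gene within 250 kb was tested.

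**Figure D4:**
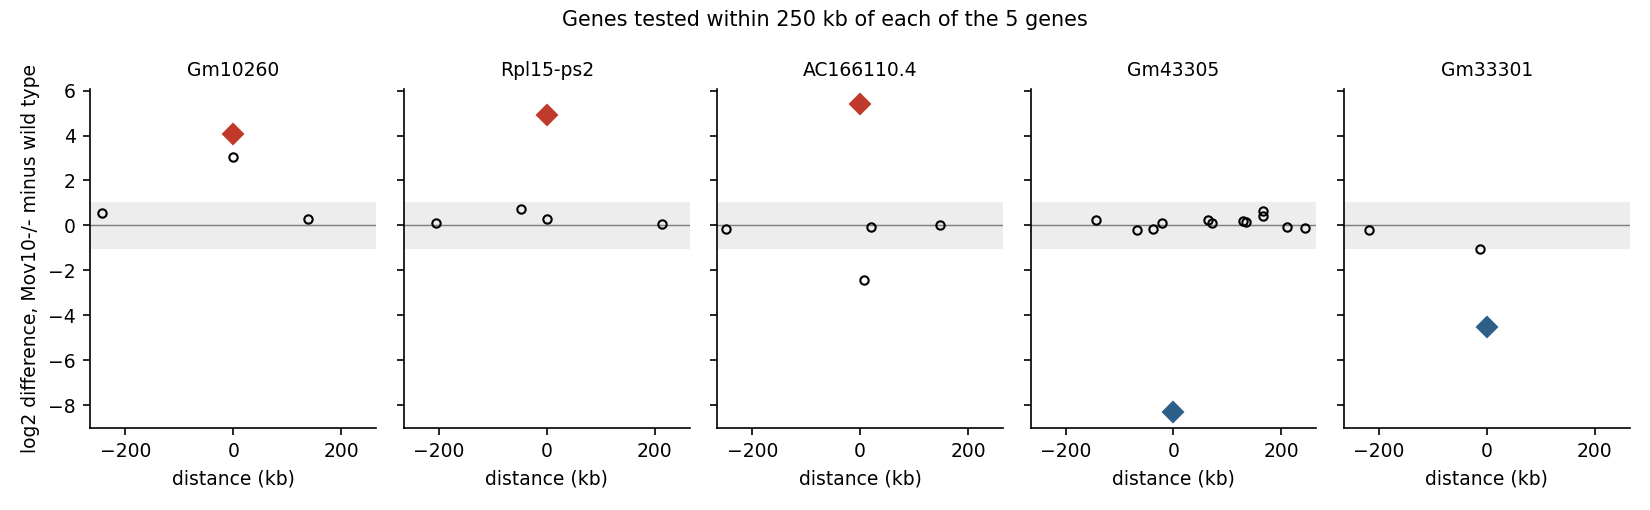
Log2 difference (Mov10-/- minus wild type, vertical axis) of the genes tested within 250 kb of each of the 5 genes, by distance in kb from the gene's body along the chromosome (horizontal axis, 0 for genes that overlap it). Filled diamonds are the 5 genes, open circles their neighbours and the grey band a change below 2-fold. Besides Gm26619, which overlaps Gm10260, AC166110.3 near AC166110.4 and 9330182O14Rik near Gm33301, all neighbours lie in the band.

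The 5 genes were set beside every other gene by a gap ratio, the level of the lowest library of the higher genotype divided by that of the highest library of the lower one, with a 0 taken as 1 read. With a ratio of at least 4 and at least 1 CPM in the higher genotype, 10 of the 55421 genes (0.018%) were higher in Mov10-/- testes and 63 (0.114%) lower. The 5 genes were among them, as their choice fixed. Rpl15-ps2, AC166110.4 and Gm10260 held ranks 3, 4 and 6 of the higher genes, with ratios of 16.2, 15.2 and 11.8. Gm43305 held rank 1 of the lower genes with 39.7 and Gm33301 rank 7 with 8.31. The neighbours of Gm33301 in that order were Gm30676 with 8.36 and Gm44827 with 7.84, and Rps2-ps10 followed Gm10260 with 9.19.

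The other genes at the head of the scan were also predicted genes. BC023719, antisense to the class I histocompatibility gene H2-T10 on chromosome 17, had 72, 55 and 60 reads in Mov10-/- testes and 0 in each wild type library, and voom called it (adjusted p = 0.0050) while the quasi-likelihood test did not (adjusted p = 0.059). Gm4134, also on chromosome 17, had 45, 78 and 84 reads against 0, 2 and 2, and Gm10406 on chromosome 14 had 25, 17 and 26 against 2, 1 and 1. With AC166110.4, 3 of the 10 higher genes lay on chromosome 17. Lower in Mov10-/- testes were Gm26886 (2, 1 and 1 reads against 33, 39 and 43), Gm26680 (1, 0 and 0 against 25, 41 and 38), Gm3029 (1, 1 and 1 against 20, 20 and 33) and Gm26972 (3, 0 and 1 against 28, 33 and 30). The first 3 of these lie on chromosome 14, as does Gm43305, but start at 3822531, 6684255 and 3931756 in mm10, far from it. In some of the 63 lower genes wild type replicate 2 was far the highest, as in Gm29825 (35, 372 and 11 reads in wild type). In others, such as Gm26886, it was not. Of the 63 lower genes, 17 were on the X chromosome, 8 on chromosome 14, 21 were long intergenic noncoding RNAs and 22 were protein-coding. The shares of all genes on these chromosomes, or of these kinds, were not counted. No excess can therefore be read from these counts or from that on chromosome 17.

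**Figure D5:**
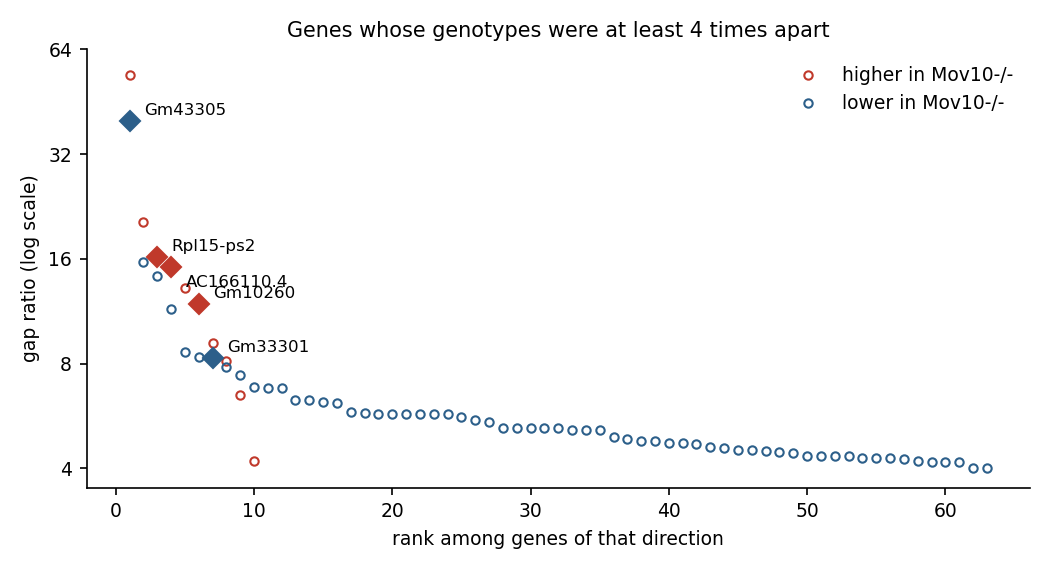
Gap ratio (log scale, vertical axis) of the genes at least 4 times apart between genotypes, by rank within the genes higher (red, 10 genes) or lower (blue, 63 genes) in Mov10-/- testes. The 5 genes, as filled diamonds with names, lie among the first 6 of the higher genes and the first 7 of the lower genes, and the ratio of the lower genes flattens towards 4.

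The genes whose levels over the 6 libraries were most alike each of the 5 were found by Pearson's r of log2(CPM + 0.5). With libraries in 2 genotypes, any gene that differs between them has a high r, so these are descriptions without a p. For Gm10260 they were Mecr (r = 0.995), a gene of mitochondrial fatty acid synthesis, Eif4ebp1 (0.993), a repressor of translation initiation, and BC023719 (0.993). Rpl15-ps2 had the chemokine gene Cxcl14 (0.994), Eif4ebp1 (0.993) and BC023719 (0.993). AC166110.4 had H2-T10 (0.996), Gm10167 (0.994) and Gm10406 (0.993). Gm43305 had Ang (0.996), which encodes the ribonuclease angiogenin, Zbtb34 (0.991) and 4930488N15Rik (0.987), and Gm33301 had Ssxb8 (0.990), Gm3029 (0.989) and 0610040B10Rik (0.988). A like pattern did not mean a like size: the log2 difference was 0.15 for Mecr and 0.30 for Eif4ebp1, against 4.07 for Gm10260.

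Markers of the cell types of the testis were summed in each library, and no list passed its test. The summed level of 15 spermatid markers ranged from 67.6 to 240 CPM in Mov10-/- testes and from 271 to 1063 CPM in wild type (exact two-sided permutation p = 0.1, the smallest that 3 against 3 libraries can give, 0.2 after adjustment over the 8 lists). No marker was at 0 in all libraries, 9 of the 15 were lower without overlap and none was higher, against 2858 lower and 2414 higher of the 20240 genes tested (26% in all). The sums of Sertoli (434 to 498 against 317 to 411 CPM), peritubular (412 to 540 against 338 to 400) and adipocyte markers (47.9 to 68.8 against 28.2 to 39.0) were higher in every Mov10-/- library. Each had the same exact permutation p = 0.1. Single genes were higher without overlap in 3 of 7 Sertoli, 4 of 5 peritubular and 2 of 6 adipocyte markers, and 0 were lower. Over all genes tested the like count was 2414 higher of 20240, and the 26% holds both directions. Spermatocyte, spermatogonial, Leydig and macrophage sums overlapped. In bulk testes fewer cells of a type and less RNA per cell cannot be told apart, and the part of these markers in the levels of the 5 genes was not tested. In wild type replicates 1, 2 and 3 the spermatid sum was 435, 1063 and 271 CPM. Gm43305 was at 37.3, 16.9 and 8.13 CPM in these libraries, and Gm33301 at 10.2, 21.8 and 20.1 CPM.

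In MOV10 CLIP-seq none of the 5 genes had a read in any of the 4 libraries. These libraries listed 9468912 to 15182658 reads, of which 99.5% to 99.6% were not aligned. With 3404 to 4934 reads on genes in each, a count of 0 allowed up to 608 to 881 CPM. At their wild type RNA levels the deepest library would have held 0.102 reads of Gm43305, 0.086 of Gm33301 and 0.0037 of Gm10260. The other 2 would have had fewer. Binding of these RNAs was thus not detectable with so few reads assigned to genes. CLIP-seq replicates 1, 2 and 3 differed among themselves by less than sampling noise (chi-square over degrees of freedom of 0.219 to 0.237) and these counted as 1 sample, whereas the same measure against replicate 5 was 1.63 to 1.93. There was no control immunoprecipitation and no CLIP-seq library from Mov10-/- testes here, where Gm10260, Rpl15-ps2 and AC166110.4 had most of their reads.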

How the data were processed

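RNA was measured in P21 testes of 3 wild type and 3 Mov10-/- mice (1 pair of testes each), and MOV10-bound RNA in 4 wild type CLIP-seq libraries. For each library the authors deposited unscaled read counts by Ensembl gene. The RNA-seq files were made with a stranded mRNA kit, STAR on mm10 and htseq-count with Ensembl v99. The strand setting, the read length and the aligner version are not given in the sources used here. Reads listed as not unique, 9.50% to 10.3% of aligned RNA-seq reads, were not counted on genes.

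The 5 genes and all gene lists were chosen with earlier results of these data known. Names, positions and transcripts came from GENCODE M21 on mm10, which is not the version the authors name, and 55240 of 55421 genes matched. Start regions came from RefSeq, which had an entry for Gm43305, Gm33301 and AC166110.4 (as Gm36684, from a start far upstream of the model counted, which is not shown). Protein sequences were not used here.

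Counts were scaled by TMM and tested with edgeR 4.0.16 (quasi-likelihood, R 4.3.3, Benjamini-Hochberg) on genes above 1 CPM in at least 3 of 6 libraries, with the limits that the study names. The SE of a log2 difference was its size divided by the root of F. P-values measure the spread between these mice. DESeq2 1.42.0, edgeR's exact test, limma 3.58.1 (voom), other scalings, no filter, a replicate block and each library left out were alternatives. The scripts were tested on simulated data. The exact intervals of a ratio came from a binomial split of pooled reads. They cover counting error only and not the spread between mice. BLAST 2.17.0 (expect limit 1e-10) found genes alike in sequence, a list set after the data were seen. Genes were named by rule: the 5 and Mov10, overlapping and nearest tested genes, the 3 most alike in level, the closest in sequence and up to 5 per direction of the scan. The others named, such as Gm10020, Smok2b and Rps2-ps10, were chosen after their values were seen.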

Additional observations from a re-analysis of the deposited data

How the results depend on the processing

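The direction of the log2 difference held for all 5 genes in every alternative that gave a value. The choice of the genes fixed this in advance, so it adds no support. On the ratio of mean CPM plus 0.5, the log2 differences were 3.43 for Gm10260, 2.89 for Rpl15-ps2, 3.77 for AC166110.4, -5.23 for Gm43305 and -3.80 for Gm33301. Without wild type replicate 1 that of AC166110.4 was 6.87, without wild type replicate 3 that of Rpl15-ps2 was 5.64, and without Mov10-/- replicate 3 that of Gm43305 was -10.43, as all other knockout reads were then 0. Leaving out a library of the higher genotype gave no fitted value for genes other than Gm33301, which were then above 1 CPM in fewer than 3 libraries.

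The number of genes called over all genes was 1 with the quasi-likelihood test, 6 with no scaling factor, 10 with no filter, 1039 with DESeq2, 1101 with the exact test and 2 with voom, and 0 to 1 with each library left out. Genes near the 5 called were 1 with DESeq2 and 2 with the exact test. Ribosomal pseudogenes called, on the list made by name, were 1 with DESeq2 and 1 with the exact test. Sequence relatives called were 2 with each of these. A gap ratio of 2 gave 365 separated genes and one of 10 gave 10, of which 4 were among the 5 genes. The cause of these differences was not tested.

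With the replicate number as a block, 181 genes were called over all genes and 1 ribosomal pseudogene on the list made by name. The log2 difference was then 7.09 for AC166110.4 and -6.99 for Gm43305. The genotypes share only numbers 2 and 3, and nothing says that a number marks a pair. Deviations from the group means correlated at -0.47 for replicates 2 and at -0.35 for replicates 3 across 20240 genes, so the numbers were not read as pairs. Depth limits the lower genotype of each gene, with 1 to 19 reads in all. The difference in the summed spermatid level was -453 CPM, and -216 CPM without wild type replicate 2.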
